A study of Mus musculus with 2 samples.

Results

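The solute carrier genes, named Slc with a family number, encode membrane proteins that move amino acids, ions, metals, vitamins, metabolites and drugs across the plasma membrane and the membranes of organelles. The members described here were the rows of the count matrix whose symbol begins with Slc and a digit and that held 500 or more unique molecular identifiers (UMIs, each standing for 1 captured transcript) over all cells of both libraries. Slc2a1, Slc7a11, Slc16a1 and Slc16a3 were left out by name. Of 19394 genes in the matrix 326 carried such a symbol, 153 of them stayed under 500 UMIs, and 169 members remained. The choice rests on the sum over both libraries and not on the difference between them, but a gene near silent in 1 library can only have passed through the other. Just inside the limit stood Slc22a17 with 580 UMIs, Slc25a53 with 514 and Slc25a29 with 506, and just outside it Slc5a6 and Slc7a9 with 486 UMIs each and Slc7a3 with 463. Of the 169 members, 5 are not carriers: Slc9a3r1 and Slc9a3r2 encode scaffold proteins that bind a sodium-proton exchanger, Slc4a1ap encodes an adaptor protein, and Slc7a6os and Slc13a2os are named for lying opposite a carrier gene.

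In kidney epithelium these carriers do much of the work of reabsorption and secretion, and every cell also uses them to feed growth and to connect its mitochondria with the cytosol. Plasma membrane carriers of the amino acid families run as exchangers or as symporters driven by the sodium gradient that the sodium pump maintains. Zinc carriers of the Slc39 family bring the metal into the cytosol and those of the Slc30 family take it out. Most carriers of the Slc25 family, though not all, span the inner mitochondrial membrane.

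The cells were renal progenitors of the Pax2 lineage, grown out of glomeruli of mice of the C57Bl/6 strain aged 9 weeks, and both groups carried the same alleles, Pax2.rtTA, TetO.Cre and R26.mT/mG. An inducible Cre under the control of Pax2 switches a reporter to GFP for good, so that the GFP sort also keeps descendants that no longer express Pax2. After 5 days of outgrowth the sorted cells were starved for 16 h and then held for 48 h with 0.2 µM panobinostat, an inhibitor of histone deacetylases, or with the solvent DMSO as vehicle. The labels give 2 mice, without saying how they were divided, and 1 library per group, so there is no spread between samples and no test between groups was run. The effect of the drug and that of the library cannot be told apart, nor can fewer cells with a transcript and less of it per cell where sums are compared.

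The panobinostat library held 2281 cells and 104188927 UMIs and the vehicle library 2854 cells and 90754967 UMIs, with medians of 42394 UMIs per cell with panobinostat and 27924 with vehicle. No 16-base cell barcode occurred in both. By transcript scores 0.132% of panobinostat cells and 64.4% of vehicle cells stood outside G1, and this difference lies under every comparison over all cells. Of 42 S-phase genes 36 (85.7%) were lower with panobinostat by the rule given below, and of 52 G2/M genes 48 (92.3%) were. Among all genes with 500 or more UMIs 10.8% were lower. The phases were scored from these same lists, so these counts and the shares outside G1 are not separate observations. All 8 markers of parietal epithelium reached 500 UMIs, summed to 5191 CPM with panobinostat and 9216 CPM with vehicle (CPM, UMIs per 1000000 of the library), and 2 of them were lower, with Pax2 itself at 24.9 CPM with panobinostat and 40.4 CPM with vehicle. The 6 podocyte markers summed to 24.4 and 12.8 CPM with panobinostat and vehicle, with 2 of them at 0 in vehicle cells, Wt1 among these. In the same order the sums were 21.9 and 17.7 CPM for 6 proximal tubule markers, 94.5 and 29.6 for 4 of the loop of Henle, 31.04 and 15.4 for 7 of the distal tubule and collecting duct, 3.14 and 9.04 for 4 of endothelium, 16.9 and 639.3 for 5 of mesangium and stroma, and 67.7 and 4.73 for 3 immune markers. Only 1 marker each of endothelium, of mesangium and stroma, and of the immune list reached 500 UMIs. These stood at 0.0864 and 6.68 CPM, 11.98 and 638.5 CPM, and 65.5 and 4.11 CPM with panobinostat and vehicle. The rest of the endothelium sum and of the mesangium and stroma sum was higher with panobinostat. Of the loop of Henle markers past 500 UMIs, 2 were higher and 1 lower (log2 ratio -1.21). Of the 3 proximal tubule markers past 500 UMIs, 1 was higher (4.17) and 1 lower (-2.08). Keg1 was at 0 with panobinostat, and Umod, Pvalb and Foxi1 at 0 with vehicle. The part of these markers in the results below was not tested.

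Solute carrier transcripts took 0.673% of UMIs with panobinostat and 0.624% with vehicle. Calls needed a CPM ratio of at least 2-fold in either direction and an exact conditional binomial 95% interval of the log2 ratio, panobinostat over vehicle, that excluded 0. Of the 169 members 32 (18.9%) were higher and 16 (9.47%) lower with panobinostat. Among all 11163 genes chosen by the same limit of 500 UMIs, 12.3% were higher and 10.8% lower. These are the shares to set beside each count of calls over all cells given below. The median log2 ratio was 0.11 over the members and -0.04 over all these genes, with 98 of 169 members above 0. With TMM factors the median of all genes shifted by -0.12 and that of the members stood at -0.0083, and with DESeq2 size factors the shift was -0.13 and the members' median -0.018. Each of these scalings shifts all genes alike, so the distance of 0.14 between the 2 medians stays the same by construction. Of the 48 calls 66.7% were in the higher direction, against 57.5% of 40 with TMM factors and 56.1% of 41 with DESeq2 size factors. Besides Slc17a7, Slc5a5 and Slc22a17, given below, other higher members passed the limit of 500 UMIs only through the panobinostat library. They include Slc25a35 (768 UMIs with panobinostat and 94 with vehicle), Slc26a10 (651 and 97) and Slc25a42 (833 and 122). Slc41a3 (715 and 152), Slc39a8 (550 and 188) and Slc7a7 (595 and 249) did so too, and this list is not complete. All intervals cover counting error only, and UMIs are taken at the 3′ end, so that a level does not grow with transcript length.

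**Figure D1:**
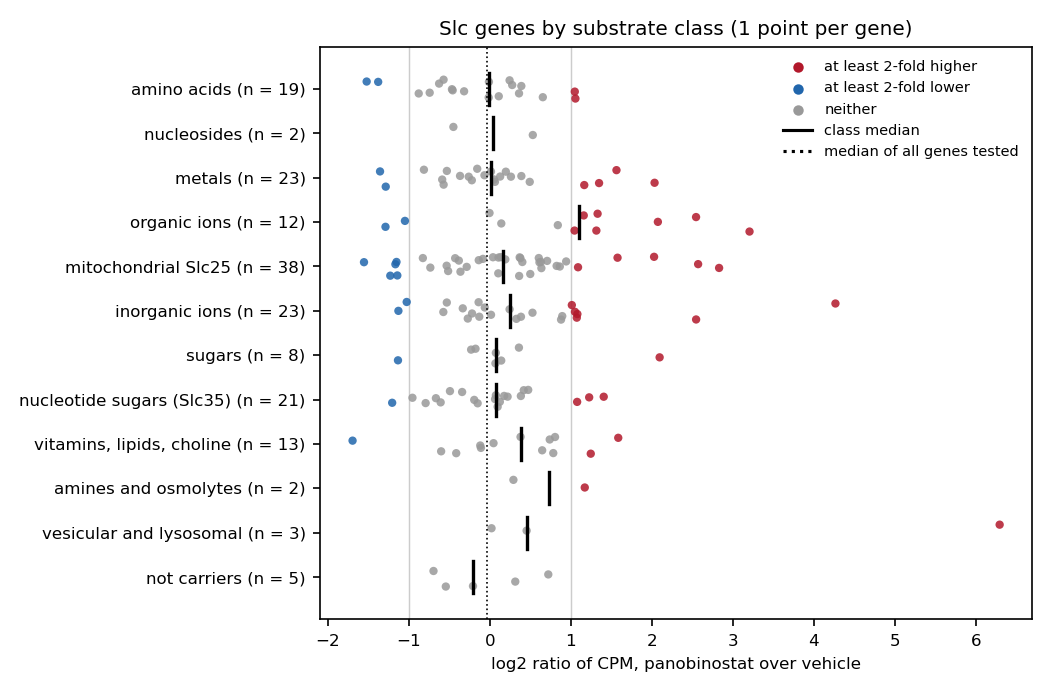
Each point is 1 Slc gene, placed by its log2 ratio of CPM (panobinostat over vehicle) on the horizontal axis and by substrate class on the vertical axis. Short black bars are class medians, the dotted line is the median of all 11163 genes tested (-0.04), and grey lines mark 2-fold. Organic ion carriers have a median of 1.10, and Slc17a7 at 6.29 stands farthest to the right.

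Among the 19 amino acid carriers 2 were lower and 2 higher (10.5% each, against 10.8% and 12.3% of all genes). Slc38a1 and Slc7a5 had the lowest ratios. Slc38a1 encodes SNAT1, a sodium-coupled importer of glutamine and other neutral amino acids, and stood at 31.8 CPM with panobinostat, against 91.3 CPM with vehicle (log2 ratio -1.52, 95% interval -1.58 to -1.46). Slc7a5 encodes LAT1, the exchanger that brings leucine and other large neutral amino acids into growing cells, and stood at 8.93 CPM with panobinostat, against 23.2 CPM with vehicle (log2 ratio -1.38, 95% interval -1.49 to -1.26). Both were lower. LAT1 reaches the cell surface bound to a heavy chain, 4F2hc, which Slc3a2 encodes. Slc3a2 stood at 63.4 CPM with panobinostat and 116 CPM with vehicle (log2 ratio -0.88), short of 2-fold, but was called lower with DESeq2 size factors, just past 2-fold. Slc38a2, whose product SNAT2 is made in response to amino acid shortage, stood at 113 CPM with panobinostat and 174 CPM with vehicle (-0.63), short of 2-fold. The cationic amino acid carrier gene Slc7a1 stood at 55.8 CPM with panobinostat and 77.0 CPM with vehicle (-0.47).

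The 2 higher members of this class were Slc7a7, which encodes the light chain y+LAT1 that exports cationic amino acids from kidney tubule cells, at 5.71 CPM with panobinostat and 2.74 CPM with vehicle (1.06), and Slc38a9, whose lysosomal product signals arginine to the growth regulator mTORC1, at 27.6 CPM with panobinostat and 13.3 CPM with vehicle (1.05). The calls of both ended with TMM factors (Slc7a7 0.94, Slc38a9 0.93), after thinning of cells (0.97 and 0.96) and over cells called G1 (0.43 and 0.79). The call of Slc7a5 also ended over cells called G1 (-0.78), and that of Slc38a1 held there (-1.35). The remaining 15 members of the class lay between -0.88 and 0.66. Summed over the class the carriers stood at 436.1 CPM with panobinostat and 632.2 CPM with vehicle, and the median log2 ratio was -0.01 with 8 of 19 above 0. Slc7a5 lies on chromosome 8 from 121881150 to 121907694 and Slc38a1 on chromosome 15 from 96571418 to 96642913 in GRCm38.

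Genes that cells use to make amino acids or to respond to their lack were also counted. The 20 such genes had a median log2 ratio of -0.53. Of them 6 were called lower and 0 higher (30% and 0%, against 10.8% and 12.3% of all genes). The transcription factor gene Atf4, whose product drives this response, stood at 100.4 CPM with panobinostat and 144 CPM with vehicle (-0.52), under 2-fold. Mthfd2, which encodes a folate enzyme of mitochondria, stood at 23.8 CPM with panobinostat and 84.8 CPM with vehicle (-1.83), and Shmt2, the serine hydroxymethyltransferase of that compartment, at 14.9 CPM with panobinostat and 47.0 CPM with vehicle (-1.66). Nupr1, a stress-induced gene, had a log2 ratio of -2.00, and Atf5, which encodes a factor of the Atf4 family, one of -1.76. Asparagine synthetase, Asns, stood at 96.3 CPM with panobinostat and 161 CPM with vehicle (-0.74). Over cells called G1 the log2 ratios were -2.64 for Nupr1, -1.59 for Mthfd2, -1.21 for Shmt2 and -2.30 for Atf5.

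Nucleoside carriers passed the limit with 2 genes, and neither was called over all cells. Slc29a1 encodes ENT1, the equilibrative carrier through which nucleosides and many nucleoside drugs enter cells, and stood at 11.8 CPM with panobinostat and 8.15 CPM with vehicle (log2 ratio 0.53, 95% interval 0.40 to 0.67). Slc29a3, whose product ENT3 works in lysosomes, stood at 9.25 CPM with panobinostat and 12.6 CPM with vehicle (-0.45). Within the vehicle library Slc29a1 was not even over the cell cycle: it stood at 3.42 CPM in cells called G1, 12.4 CPM in S and 9.48 CPM in G2/M. When the libraries were compared over cells called G1 alone, Slc29a1 had a log2 ratio of 1.79 and was called higher. Slc29a3 had one of -0.67 there. Of the 4 nucleoside carrier genes under the limit, Slc43a3, which moves nucleobases, had 289 UMIs with panobinostat and 167 with vehicle, and Slc29a2, which encodes ENT2, had 98 and 207. Both were named after their values were seen. In GRCm38 Slc29a1 is annotated on chromosome 17 from 45585200 to 45599606.

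Of 18 enzymes that salvage the nucleosides these carriers supply, the median log2 ratio was -0.42, and 4 were called lower and 2 higher. That is 22.2% and 11.1%, against 10.8% and 12.3% of all genes. Tk1, the thymidine kinase of dividing cells, stood at 2.09 CPM with panobinostat and 49.5 CPM with vehicle (-4.56), and Dctd, a deaminase of deoxycytidylate, at 6.72 CPM with panobinostat and 27.6 CPM with vehicle (-2.04). The adenosine kinase gene Adk stood at 198 CPM with panobinostat and 62.9 CPM with vehicle (1.65). Tk2, the thymidine kinase of mitochondria, was also higher (1.17), and Dck (-1.41) and Uck2 (-1.07), kinases of deoxycytidine and uridine, were lower. Hprt, which salvages purine bases, stood at 279 CPM with panobinostat and 183 CPM with vehicle (0.61).

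Among 23 metal carriers 4 were higher and 2 lower (17.4% and 8.70%, against 12.3% and 10.8% of all genes). The members belong to unlike routes. Slc40a1 encodes ferroportin, the exporter of iron from cells, and stood at 55.1 CPM with panobinostat, against 18.6 CPM with vehicle (log2 ratio 1.56, 95% interval 1.49 to 1.64). Slc30a4, which encodes a carrier that moves zinc out of the cytosol, stood at 40.7 CPM with panobinostat and 18.1 CPM with vehicle (1.17). Slc41a3, of a family that carries magnesium, had 6.86 CPM with panobinostat and 1.67 CPM with vehicle (2.03), and Slc39a8, whose product ZIP8 imports zinc and manganese, had 5.28 CPM with panobinostat and 2.07 CPM with vehicle (1.35). The lower members were the zinc importer genes Slc39a10, at 10.3 CPM with panobinostat and 26.4 CPM with vehicle (-1.35), and Slc39a3, at 6.11 CPM with panobinostat and 14.9 CPM with vehicle (-1.28). All 6 calls held over cells called G1 and with the factors of TMM and of DESeq2.

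Within the zinc importer family Slc39, 2 of 10 members lay above 0, 1 was higher and 2 were lower, and the family summed to 232.7 CPM with panobinostat and 317.9 CPM with vehicle (median log2 ratio -0.39). Within the zinc exporter family Slc30, 4 of 6 lay above 0 and 1 was higher, with sums of 137.9 and 116.5 CPM (median 0.04). By UMIs the leading metal carriers were Slc48a1, which moves haem out of lysosomes, at 139 CPM with panobinostat and 98.9 CPM with vehicle (0.49), and the zinc carriers of the secretory pathway and cell surface Slc39a7 (-0.26) and Slc39a1 (-0.53). The iron importer gene Slc11a2 (DMT1, 0.39) and the copper importer gene Slc31a1 (0.26) stayed under 2-fold. In GRCm38 Slc40a1 is annotated on chromosome 1 from 45908068 to 45926523.

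Other genes of metal handling were read beside these carriers. Of 15 that reached 500 UMIs, 5 were higher and 3 lower, with a median of 0.70. That is 33.3% and 20%, against 12.3% and 10.8% of all genes. Tfrc, the receptor that brings transferrin-bound iron into cells, stood at 38.9 CPM with panobinostat and 95.7 CPM with vehicle (-1.30). The ferritin chains that store iron stood at 5714 CPM with panobinostat and 3008 CPM with vehicle for Fth1 (0.93) and at 9061 CPM with panobinostat and 5584 CPM with vehicle for Ftl1 (0.70), both under 2-fold. Hmox1, which frees iron from haem, was higher (1.65), as were the metallothionein Mt1 (1.70) and the copper chaperone Atox1 (1.41). Ceruloplasmin, Cp, which oxidises iron, was lower (-1.89).

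The promoters of Slc30a4, higher, and Slc39a3, lower, are shown because both genes carry zinc and moved in opposite directions while both hold the core of the metal response element, searched as TGCNCNC on both strands. Each sequence is the 250 bases before the RefSeq start on the gene's own strand, in GRCm38.p6, with every match in capitals. The window of Slc30a4 is chr2:122702664-122702913 on the minus strand and that of Slc39a3 is chr10:81037316-81037565 on the minus strand.
Slc30a4: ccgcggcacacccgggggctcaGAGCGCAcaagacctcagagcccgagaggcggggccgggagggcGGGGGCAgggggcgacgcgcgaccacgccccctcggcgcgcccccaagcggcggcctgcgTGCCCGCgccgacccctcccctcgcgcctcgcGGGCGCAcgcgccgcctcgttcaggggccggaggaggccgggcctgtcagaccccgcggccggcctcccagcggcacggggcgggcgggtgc
Slc39a3: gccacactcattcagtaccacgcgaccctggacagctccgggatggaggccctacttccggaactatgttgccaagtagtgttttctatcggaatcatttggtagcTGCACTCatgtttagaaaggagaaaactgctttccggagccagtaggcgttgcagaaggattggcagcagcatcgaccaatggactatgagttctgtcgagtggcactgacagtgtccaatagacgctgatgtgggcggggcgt
Slc30a4 holds 4 matches and Slc39a3 holds 1, and none of them overlaps another motif searched. The window of Slc30a4 is 82.8% G or C and that of Slc39a3 52.8%. So short a motif is common: 44.4% of all 32851 promoter windows held it, against 14 of 21 windows (66.7%) of the 18 metal carriers with a promoter sequence. By gene, 13 of these 18 held it. Promoter sequences were found for 131 of the 169 members, in 177 windows. Among these windows 50.8% held TGCNCNC, 13.0% the E-box CACGTG (6.02% of all windows), 16.9% the antioxidant response core TGACNNNGC (10.2% of all) and 2.26% the amino acid response core TGATGNAA (3.45% of all). TGCNCNC was held by 41.2% of the 34 windows of members called higher and 47.4% of the 19 of those called lower, near the 44.4% of all windows. A match is a run of letters and not a bound site.

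Carriers of organic ions had the highest median among classes with more than 3 members. Of 12 members 7 were higher and 2 lower, with a median log2 ratio of 1.10. That is 58.3% and 16.7%, against 12.3% and 10.8% of all genes. The 9 calls of the class fell to 5 with a limit of 10 CPM in a library, and to 5 with a limit of 1000 UMIs. Slc22a17, which encodes a receptor of the iron-binding protein lipocalin-2, had 530 UMIs with panobinostat and 50 with vehicle, or 5.09 and 0.551 CPM (log2 ratio 3.21, 95% interval 2.79 to 3.66). It passed the limit of 500 UMIs only through the panobinostat library. Slc22a18, an imprinted gene of the same family, stood at 17.4 CPM with panobinostat and 2.99 CPM with vehicle (2.55). Slc29a4 encodes PMAT, a carrier of monoamines and other organic cations, and stood at 21.04 CPM with panobinostat and 4.99 CPM with vehicle (2.08). Over cells called G1 the log2 ratio was 2.51 for Slc22a17 and 1.90 for Slc22a18, and both stayed higher. Slc22a18, Slc29a4 and Slc16a11, given next, also held fewer than 500 UMIs with vehicle. They too passed the limit only through the panobinostat library, and this list is not complete.

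Slc16a11, of the monocarboxylate carrier family, stood at 12.2 CPM with panobinostat and 4.86 CPM with vehicle (1.33). Slc22a4, which encodes the ergothioneine carrier OCTN1 (1.16), and Slc10a3, of the bile acid carrier family (1.05), were higher by smaller ratios. The lower members were Slc22a15, at 4.37 CPM with panobinostat and 10.7 CPM with vehicle (-1.29), and Slc16a13, at 3.40 CPM with panobinostat and 7.02 CPM with vehicle (-1.05). Slc16a11 (higher) and Slc16a13 (lower) are neighbours on chromosome 11, on opposite strands with 371 bases between their annotated ends. Slc22a23, the class member with the most UMIs, stood at 54.9 CPM with panobinostat and 30.7 CPM with vehicle (0.84). The call of Slc10a3 ended with TMM factors (0.93), and those of Slc16a11 (0.85) and Slc22a15 (-0.92) ended over cells called G1. That of Slc16a13 ended after thinning (-0.99).

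Among 7 ATP-driven exporters of the ABC family past the limit, which move many of the same organic substrates, 3 were higher and 0 lower (median 0.31). That is 42.9% and 0%, against 12.3% and 10.8% of all genes. The 3 were Abcg1, a lipid exporter (4.77 and 0.551 CPM with panobinostat and vehicle, 3.11), and the organic anion exporters Abcc3 (1.30) and Abcc5 (1.29). Abcc4 stood at 230.4 CPM with panobinostat and 186 CPM with vehicle and Abcg2 at 108 CPM with panobinostat and 106 CPM with vehicle. Abcb1b, a multidrug exporter gene, had a log2 ratio of -0.90.

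**Figure D2:**
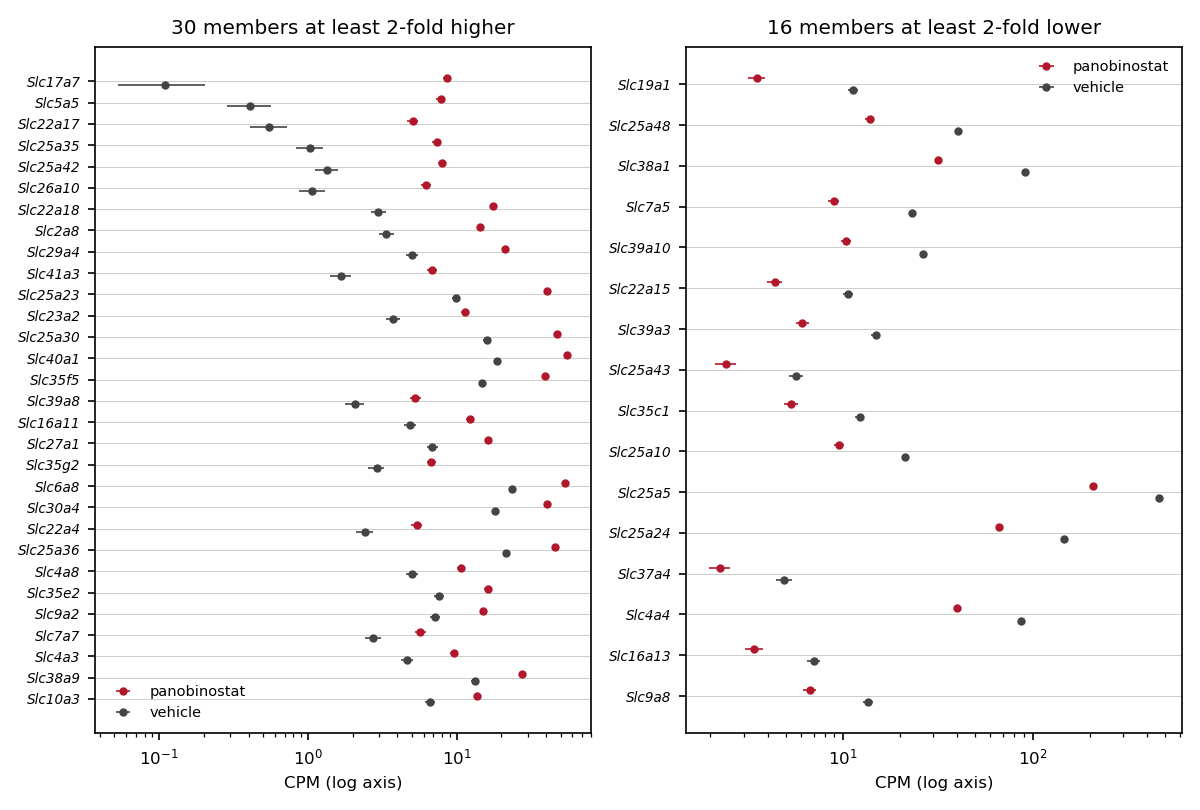
Level in CPM on a log axis of 30 of the 32 members at least 2-fold higher (left) and the 16 at least 2-fold lower (right), with panobinostat in red and vehicle in grey and bars for exact Poisson 95% intervals. All 30 higher members drawn lie under 60 CPM in both libraries, and the lowest vehicle values belong to Slc17a7 (0.11 CPM) and Slc5a5 (0.408 CPM).

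The mitochondrial family Slc25 was the class with the most members and the most UMIs. Its 38 members summed to 3566 CPM with panobinostat and 3064 CPM with vehicle, and 5 were higher and 5 lower, with a median log2 ratio of 0.16. These calls make 13.2% each way, near the 12.3% and 10.8% of all genes. The adenine nucleotide carriers, which exchange ATP made in mitochondria for ADP, differed in direction. Slc25a4 (ANT1) stood at 909 CPM with panobinostat and 594 CPM with vehicle (log2 ratio 0.61, 95% interval 0.60 to 0.63), under 2-fold. Slc25a5 (ANT2), the form known from dividing cells, stood at 209 CPM with panobinostat and 463 CPM with vehicle (log2 ratio -1.15, 95% interval -1.17 to -1.13) and was lower. Slc25a4 made up 81.3% of the UMIs of the pair with panobinostat and 56.2% with vehicle (exact binomial intervals 81.1 to 81.6 and 55.9 to 56.5). The call of Slc25a5 ended over cells called G1 (log2 ratio -0.81), and Slc25a4 stood at 0.62. A processed pseudogene of Slc25a5 is annotated, so its count is uncertain.

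The carriers of ATP-magnesium and phosphate, which adjust the adenine nucleotide pool of the matrix, also differed by gene. Slc25a23 stood at 40.6 CPM with panobinostat and 9.94 CPM with vehicle (2.03) and was higher, while Slc25a24 stood at 66.8 CPM with panobinostat and 147 CPM with vehicle (-1.14) and was lower. Slc25a42, which carries coenzyme A, had 7.995 CPM with panobinostat and 1.34 CPM with vehicle (2.57), and Slc25a35, of the same family, 7.37 CPM with panobinostat and 1.04 CPM with vehicle (2.83). Slc25a30 had 47.7 CPM with panobinostat and 16.0 CPM with vehicle (1.58). Slc25a36, a pyrimidine nucleotide carrier gene, stood at 45.6 CPM with panobinostat and 21.4 CPM with vehicle (1.09), a call that ended with TMM factors (0.97) and over cells called G1 (0.84).

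The other lower members of the family were Slc25a48, whose product imports choline, at 13.8 CPM with panobinostat and 40.6 CPM with vehicle (-1.55), the dicarboxylate carrier gene Slc25a10, at 9.53 CPM with panobinostat and 21.4 CPM with vehicle (-1.16), and Slc25a43, at 2.41 CPM with panobinostat and 5.64 CPM with vehicle (-1.23). Slc25a43 lies next to Slc25a5 on the X chromosome, with 18448 bases between them. The calls of Slc25a48 (-0.73) and Slc25a10 (-0.18) ended over cells called G1, and Slc25a43 and Slc25a24 stayed lower (-1.52 and -1.14). The aspartate-glutamate carriers had log2 ratios of 0.83 for Slc25a12 (aralar) and -0.83 for Slc25a13 (citrin), both under 2-fold. The phosphate carrier gene Slc25a3, with the most UMIs of all members, stood at 1452 CPM with panobinostat and 1129 CPM with vehicle (0.36). The citrate carrier gene Slc25a1 (0.86), the carnitine carrier gene Slc25a20 (0.94) and the glutathione carrier gene Slc25a39 (0.64) stayed under 2-fold, as did the mitoferrins Slc25a37 (0.14) and Slc25a28 (0.11). Slc25a4 lies on chromosome 8 from 46206797 to 46211284 and Slc25a5 on chromosome X from 36795651 to 36798807 in GRCm38.

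**Figure D3:**
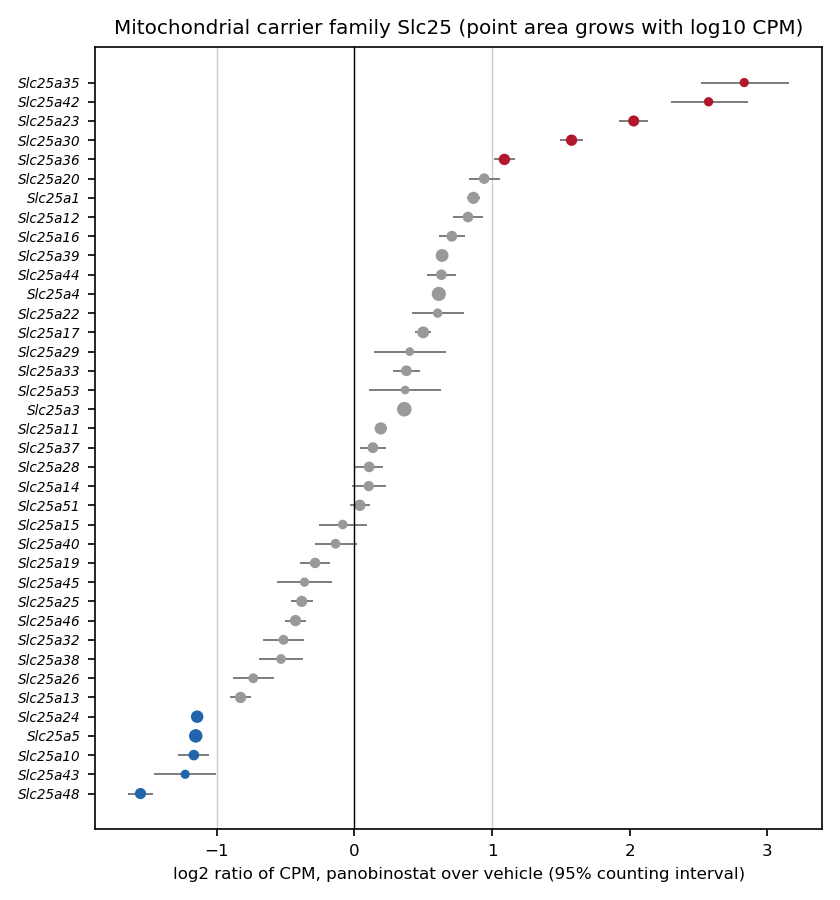
Log2 ratio of CPM (panobinostat over vehicle) of the 38 members of the mitochondrial carrier family, with bars for the exact 95% counting interval and point areas that grow with log10 CPM. The 5 higher members (red) run from 1.09 to 2.83 and the 5 lower ones (blue) from -1.55 to -1.14, with Slc25a4 at 0.61 and Slc25a5 at -1.15.

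The promoters of Slc25a23 and Slc25a5 are shown as those of a higher and a lower member of this family that hold the antioxidant response core TGACNNNGC, searched on both strands and set in capitals. They are the 250 bases before the RefSeq start, chr17:57059864-57060113 on the minus strand for Slc25a23 and chrX:36795347-36795596 on the plus strand for Slc25a5 in GRCm38.p6.
Slc25a23: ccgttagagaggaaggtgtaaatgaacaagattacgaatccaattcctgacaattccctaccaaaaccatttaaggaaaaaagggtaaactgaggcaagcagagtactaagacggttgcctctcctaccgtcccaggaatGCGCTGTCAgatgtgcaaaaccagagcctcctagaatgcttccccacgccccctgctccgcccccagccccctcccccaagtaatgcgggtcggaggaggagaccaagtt
Slc25a5: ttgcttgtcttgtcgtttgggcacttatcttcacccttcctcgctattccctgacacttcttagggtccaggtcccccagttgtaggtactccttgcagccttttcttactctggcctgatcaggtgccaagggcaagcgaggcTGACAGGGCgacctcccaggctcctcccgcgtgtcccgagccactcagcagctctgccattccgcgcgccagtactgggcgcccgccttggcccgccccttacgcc
Each window holds 1 match, which begins 110 bases before the start in Slc25a23 and 106 in Slc25a5 and overlaps no other motif searched. Among the 39 windows of the family 9 held this core (23.1%), against 10.2% of all windows. Windows of a gene can overlap, and 2 windows of Slc25a23 hold the same match. By gene, 7 of the 30 with a promoter sequence held the core. Among all members the core was held by 11.8% of windows of those called higher (3 of 24 genes). It was held by 10.5% of windows of those called lower (2 of 13 genes), and both shares are near that of all windows.

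The machinery that inserts these carriers into the inner membrane was read beside them, as were channels of mitochondria. Of 12 import genes 1 was higher (8.33%, against 12.3% of all genes) and 0 lower (median -0.08). The 1 was Timm10b, at 73.2 CPM with panobinostat and 36.2 CPM with vehicle (1.02), while its partners of the intermembrane space Timm9 (-0.65) and Timm10 (-0.82) were not called, nor was the small translocase gene Timm8a1, at 43.2 CPM with panobinostat and 86.2 CPM with vehicle, just short of 2-fold. Of 9 channel and pyruvate carrier genes 1 was higher (11.1%, against the same 12.3%) and 0 lower, with a median of -0.05. The outer membrane channels stood at 231 CPM with panobinostat and 239 CPM with vehicle for Vdac1 and at 431 CPM with panobinostat and 480.1 CPM with vehicle for Vdac2, and the mitochondrial pyruvate carrier gene Mpc1 had a log2 ratio of 0.77.

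Among 23 carriers of inorganic ions 6 were higher and 2 lower, with a median of 0.25. That is 26.1% and 8.70%, against 12.3% and 10.8% of all genes. Slc5a5 encodes NIS, the sodium-iodide symporter best known from the thyroid, and had 818 UMIs with panobinostat and 37 with vehicle, or 7.85 and 0.408 CPM (log2 ratio 4.27, 95% interval 3.79 to 4.78), and passed the limit only through the panobinostat library. After thinning of every cell to 18663 UMIs, 13.4% of panobinostat cells and 0.666% of vehicle cells held a UMI of it (exact binomial intervals 11.98 to 14.9 and 0.381 to 1.08), against 26.7% and 1.23% unthinned. Slc26a10, of the anion exchanger family, stood at 6.25 CPM with panobinostat and 1.07 CPM with vehicle (2.55).

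The bicarbonate carrier genes of the class did not share a direction. Slc4a4 encodes NBCe1, which returns bicarbonate to the blood in the proximal tubule, and was lower at 39.8 CPM with panobinostat and 86.9 CPM with vehicle (-1.13). Slc4a8 (1.08) and Slc4a3 (1.05) were higher. The sodium-proton exchanger genes Slc9a2 (1.07) and Slc9a8 (-1.03) were higher and lower. The calls of Slc4a8, Slc4a3 and Slc9a2 ended with TMM factors, at 0.97, 0.94 and 0.96. Those of Slc4a3 and Slc9a2 also ended over cells called G1, at 0.87 and 0.99. Centring on the median gene put Slc9a8 at -0.99 and ended its call, and it fell just short of 2-fold over cells called G1. The phosphate importer gene Slc20a1 stood at 102 CPM with panobinostat and 123 CPM with vehicle (-0.27) and Slc4a11 at 91.9 CPM with panobinostat and 116 CPM with vehicle (-0.33).

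The sodium pump, whose gradient drives many of these carriers, was read beside them. Its beta chain gene Atp1b1 stood at 573 CPM with panobinostat and 397 CPM with vehicle (0.53). Of 6 pump genes past the limit the regulators Fxyd2 (2.94) and Fxyd6 (4.15) were higher and 0 were lower (median 0.01). That is 33.3% and 0%, against 12.3% and 10.8% of all genes. Of 10 partner proteins of carriers 2 were higher and 0 lower (20% and 0%, against the same shares, median 0.10). They were Bsg, which encodes basigin, a chaperone of lactate carriers, at 1445 CPM with panobinostat and 579 CPM with vehicle (1.32), and its relative Nptn (1.19). Ezr, which anchors the scaffolds of brush border carriers, stood at 684 CPM with panobinostat and 474 CPM with vehicle (0.53), and the carrier-activating kinase gene Oxsr1 had a log2 ratio of -0.86.

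Vitamin, lipid and choline carriers held the member with the smallest ratio of all. Slc19a1 encodes the reduced folate carrier, through which folate and methotrexate enter cells, and stood at 3.51 CPM with panobinostat, against 11.4 CPM with vehicle (log2 ratio -1.69, 95% interval -1.87 to -1.52). It stayed lower over cells called G1 (-1.11). Slc46a1, the other folate importer gene of the class, stood at 3.18 CPM with panobinostat and 4.82 CPM with vehicle (-0.60). Higher were Slc23a2, which encodes the vitamin C carrier SVCT2, at 11.3 CPM with panobinostat and 3.77 CPM with vehicle (1.59), and Slc27a1, a fatty acid carrier gene, at 16.3 CPM with panobinostat and 6.89 CPM with vehicle (1.25). The call of Slc27a1 ended over cells called G1 (0.92). The choline carrier-like genes Slc44a1, Slc44a2 and Slc44a3, with the most UMIs of the class, had log2 ratios of 0.78, 0.05 and 0.81. Of 13 members of the class 2 were higher and 1 was lower (median 0.38). That is 15.4% and 7.69%, against 12.3% and 10.8% of all genes.

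Of 21 members of the Slc35 family, which bring nucleotide sugars into the Golgi and endoplasmic reticulum, 3 were higher and 1 was lower (median 0.08). That is 14.3% and 4.76%, against 12.3% and 10.8% of all genes. Slc35c1, the carrier gene of GDP-fucose, was lower at 5.31 CPM with panobinostat and 12.2 CPM with vehicle (-1.20). Slc35f5 (39.5 and 14.9 CPM with panobinostat and vehicle, 1.41), Slc35g2 (1.23) and Slc35e2 (1.08) were higher, and the call of Slc35e2 ended with TMM factors (0.96). The endoplasmic reticulum carrier gene Slc35b1 (0.12), the sulfate donor carrier gene Slc35b2 (0.22) and the sialic acid donor carrier gene Slc35a1 (-0.15) led the family in UMIs and stayed under 2-fold.

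Of 8 sugar carriers, Slc2a8, which encodes the intracellular glucose carrier GLUT8, was higher at 14.4 CPM with panobinostat and 3.37 CPM with vehicle (2.10), and Slc37a4, the glucose-6-phosphate carrier gene of the endoplasmic reticulum, was lower at 2.24 CPM with panobinostat and 4.90 CPM with vehicle (-1.13). The 1 higher and 1 lower sugar carrier make 12.5% each, near the 12.3% and 10.8% of all genes. Slc50a1, with the most UMIs of this class, stood at 55.6 CPM with panobinostat and 50.4 CPM with vehicle (0.14). The creatine carrier gene Slc6a8 was higher at 53.4 CPM with panobinostat and 23.7 CPM with vehicle (1.17), a call that ended over cells called G1 (0.88), and the taurine carrier gene Slc6a6 stood at 98.4 CPM with panobinostat and 80.4 CPM with vehicle (0.29).

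Slc17a7 encodes VGLUT1, which fills synaptic vesicles with glutamate in neurons, and had the largest log2 ratio among the members. It had 901 UMIs with panobinostat and 10 with vehicle, or 8.65 and 0.110 CPM (log2 ratio 6.29, 95% interval 5.41 to 7.36), and passed the limit only through the panobinostat library. In thinned cells 14.6% with panobinostat and 0.167% with vehicle held a UMI of it (exact binomial intervals 13.2 to 16.2 and 0.0454 to 0.426), against 30.3% and 0.350% unthinned. No cell type that should lack this gene was identified in the sort, so the share that free RNA gives was not tested. The log2 ratio over cells called G1 was 5.27. The lysosomal sialic acid carrier gene Slc17a5 (0.46) and the vesicular polyamine carrier gene Slc18b1 (0.02) stayed under 2-fold. Under the limit, and named after its values were seen, the vesicular GABA carrier gene Slc32a1 had 174 UMIs with panobinostat and 0 with vehicle. In GRCm38 Slc17a7 is annotated on chromosome 7 from 45163949 to 45176142.

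Of the 5 members that are not carriers 0 were called. Slc9a3r1, which encodes the scaffold NHERF1, stood at 189 CPM with panobinostat and 152 CPM with vehicle (0.32), and Slc9a3r2 had a log2 ratio of 0.72 and Slc4a1ap one of -0.21. Slc7a6os (-0.54) lies next to Slc7a6 (-0.46), and Slc13a2os (-0.69) overlaps Slc13a2 on the other strand. The sources used here do not say whether strand was used in counting, so reads of Slc13a2os and Slc13a2 cannot be told apart.

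Since vehicle cells were spread over the cell cycle and panobinostat cells were not, the members were also read by phase within the vehicle library. Relative to cells called G1, 4 of the 169 members were at least 2-fold higher in S and 5 in G2/M, and 5 were at least 2-fold lower in S and 4 in G2/M. These counts use the ratio alone, without an interval. The share of all genes was not computed, so the counts cannot be called many or few. The largest excess in S belonged to Slc29a1, given above. Slc1a5, which encodes the glutamine carrier ASCT2, stood at 7.19 CPM in G1, 16.9 CPM in S and 16.6 CPM in G2/M. Over all cells it was at 13.4 CPM with panobinostat and 13.5 CPM with vehicle, and over cells called G1 its log2 ratio was 0.90. Slc25a10 stood at 10.8, 25.5 and 27.9 CPM in G1, S and G2/M, and Slc25a48 at 22.8, 44.3 and 53.6 CPM. Slc16a10, a carrier gene of aromatic amino acids, stood at 3.26, 7.13 and 7.36 CPM.

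Slc22a18 was lower outside G1 and stood at 4.70 CPM in G1, 2.32 CPM in S and 1.93 CPM in G2/M of the vehicle library, and Slc7a7 likewise at 4.25, 1.94 and 1.96 CPM. Over cells called G1 in both libraries 25 members were higher and 13 lower. Of the 32 members higher over all cells 23 kept the call there, and of the 16 lower ones 10 kept it. Among all genes 11.4% were higher and 7.27% lower over these cells, against 12.3% and 10.8% over all cells. How many of all called genes kept their call was not counted, so the loss of calls cannot be read as particular to the members. Phases are called from transcript scores relative to the cells scored together, and cells of 1 library are not replicates, so these values describe the libraries and no more.

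**Figure D4:**
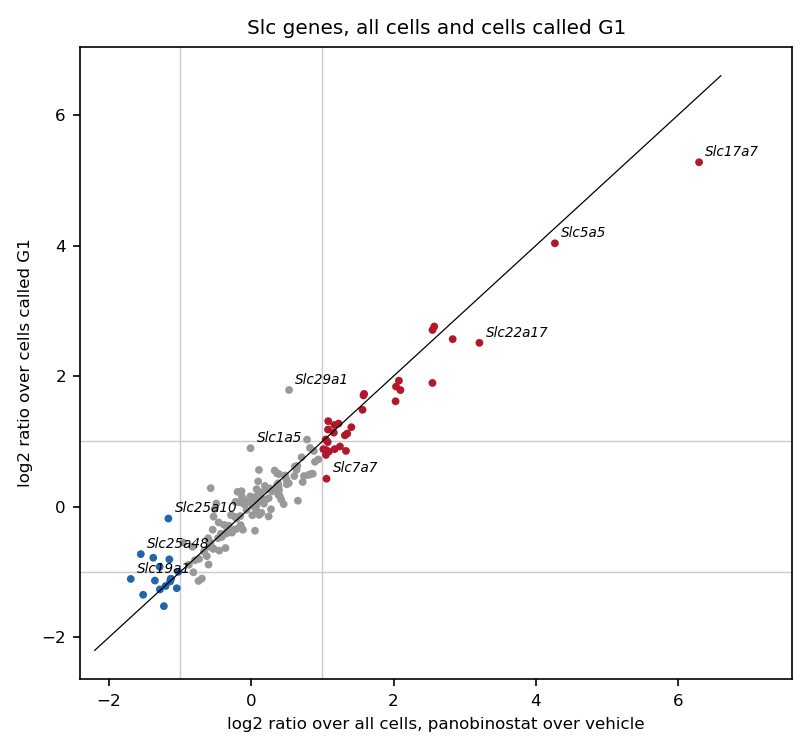
Log2 ratio of CPM (panobinostat over vehicle) of each of the 169 members over all cells (horizontal axis) and over cells called G1 (vertical axis), coloured by the call over all cells (red higher, blue lower, grey neither). The diagonal is equality and grey lines mark 2-fold. Slc29a1 lies farthest above the diagonal (0.53 and 1.79), Slc25a10 stands at -1.16 over all cells and -0.18 over cells called G1, and Slc17a7 lies below it (6.29 and 5.27).

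Spread among cells of 1 library was read from thinned UMIs as the ratio of variance to mean, which is 1 where cells differ by counting alone. The median over the members was 1.07 with panobinostat and 1.06 with vehicle, and 8 members exceeded 1.5 with panobinostat and 13 with vehicle. Slc25a3 had the largest ratio in both libraries (2.60 and 2.04). Slc20a1 (2.31 with panobinostat and 1.95 with vehicle), Slc38a2 (2.11 and 1.70) and Slc3a2 were among the 8 with the largest ratio in each. Slc25a48 (1.21 and 1.96) was among them in the vehicle library alone. The ratio grows with the level of a gene, so it orders genes of like level only. Per cell, a median of 83 of the 169 members had a UMI with panobinostat and 63 with vehicle, and in thinned cells the medians were 52 and 50.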

How the data were processed

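Single cells were captured with 10x Chromium chemistry that reads the 3′ end of transcripts, and read on a NextSeq500, per the labels' protocols. The submitters' processing notes name Cell Ranger 3.0.1 and mm10; for annotation and cell filters the sources used here give nothing. The deposited values are raw UMI counts per gene and cell, with no normalization by the authors. Cells were assigned to libraries by the ending of the barcode, PANO for panobinostat and CTRL, read as control, for vehicle.

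Counts were summed per library and scaled to 1000000 UMIs (CPM). A gene with 500 or more UMIs over both libraries was called at 2-fold with an exact conditional binomial 95% interval excluding equality. The rule compares sizes between 2 libraries and tests no treatment; it was tested on simulated data. Thinning to 18663 UMIs per cell left out 60 panobinostat and 453 vehicle cells. Phases were scored with scanpy 1.11.5. Doublets were not called, and leaving out each library's cells above the 99th percentile of UMIs stands in for that. Scaling alternatives used edgeR 4.0.16 and DESeq2 1.42.0, in R 4.3.3, with Python 3.11.15 and scipy 1.17.1 elsewhere.

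Substrate classes followed the Slc family. After values were seen, Slc7a6os, Slc4a1ap and Slc13a2os were set apart as not carriers, and Slc5a5 was moved from sugars to inorganic ions. Per class the text names up to 5 higher and 5 lower members by ratio and the 3 with the most UMIs; other names were chosen after values were seen. Members and lists were chosen with earlier results of these data known. The list marker C1qa was not analysed here. Gene coordinates are from GENCODE M21 and promoters from RefSeq, both on GRCm38, the assembly of mm10. Protein sequences were not used here. Some genes that enter the counts are not reported here by name.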

Additional observations from a re-analysis of the deposited data

How the results depend on the processing

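The number of members called higher (32) and lower (16) was 23 and 17 with TMM factors, 23 and 18 with DESeq2 size factors, 32 and 15 when centred on the median gene, and 30 and 15 after thinning. With TMM factors that is 13.6% and 10.1% of members, against 10.9% and 13.3% of all genes. With DESeq2 factors it is 13.6% and 10.7%, against 10.7% and 13.5%. When centred it is 18.9% and 8.88%, against 12.9% and 10.0%, and after thinning 17.8% and 8.88%, against 12.3% and 10.9%. Leaving out the cells with the most UMIs and averaging over cells left both counts as they were. A limit of 10 CPM in a library left 19 higher and 13 lower of 122 members, 1000 UMIs left 20 and 13 of 141, and no limit gave 101 and 31 of 322. At 1.5-fold 49 were higher and 29 lower (29.0% and 17.2%, against 21.8% and 22.4% of all genes). At 3-fold 12 were higher and 1 lower (7.10% and 0.592%, against 6.78% and 4.40%). Over cells called G1 the counts were 25 and 13 (14.8% and 7.69%, against 11.4% and 7.27%). They were 25 and 11 of 163 members with the limit applied within those cells, an alternative chosen after seeing the data. That is 15.3% and 6.75%, against 11.4% and 6.39% of all genes. The members' median of 0.11 was -0.0083 with TMM, -0.018 with DESeq2 factors and 0.48 with no limit. No called member changed direction under any of these alternatives.

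By class, these alternatives moved the number of calls by more than 1.5 times. With TMM factors amino acids had 2 calls and inorganic ions 4 (4 also with DESeq2 factors), against 4 and 8. With no limit the calls were 25 for amino acids, 23 for inorganic ions, 21 for organic ions, 10 for metals, 10 for sugars, 7 for Slc35, 7 for vitamins, lipids and choline, 6 for amines and osmolytes, 5 for vesicular carriers and 2 for nucleosides. At 10 CPM they were 5 for inorganic ions, 5 for organic ions, 1 for sugars and 0 for vesicular carriers, and at 1000 UMIs 5, 1 and 0 for the last 3. At 1.5-fold they were 20 for Slc25, 8 each for amino acids, Slc35 and vitamins, lipids and choline, and 2 for members that are not carriers. At 3-fold they were 3 for Slc25, 3 for organic ions, 2 for inorganic ions, 1 for metals, 1 for sugars, and 0 for amino acids, Slc35 and amines. Over cells called G1 they were 6 for Slc25, 4 for inorganic ions, 2 for amino acids, 1 for nucleosides, 1 for members that are not carriers and 0 for amines. With the limit applied within those cells these were 5 for Slc25 and otherwise the same, and sugars had 1. Thinning left 2 for amino acids. Placing the 4 moved genes in their family classes, chosen after seeing the data, moved no class count by more than 1.5 times.

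No paired analysis was possible because each group has 1 library. The intervals cover counting error only, and variation between mice, cultures or libraries cannot be read from these data.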

Other observations

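Of the 153 Slc genes under 500 UMIs, 32 belong to the amino acid class, 28 to inorganic ions and 27 to organic ions. Some are carriers of tubule segments, named here after their values were seen. Their directions differed, but the genes named do not give the balance of all Slc genes. With no limit 101 of 322 Slc genes were higher (31.4%, against 21.5% of all genes) and 31 lower (9.63%, against 9.64%). Slc12a1, the sodium-potassium-chloride cotransporter gene of the loop of Henle, had 100 UMIs with panobinostat and 8 with vehicle. Slc12a3, the thiazide-sensitive cotransporter gene of the distal tubule, had 26 and 2, the phosphate carrier gene Slc34a2 55 and 5, and the sodium-glucose cotransporter gene Slc5a1 104 and 41. Fewer UMIs with panobinostat than with vehicle were found for the urea carrier gene Slc14a2 (22 and 110), the bile acid carrier gene Slc10a2 (7 and 23), the amino acid carrier gene Slc6a18 (9 and 24), the dicarboxylate carrier gene Slc13a2 (5 and 13) and the organic anion carrier gene Slc17a3 (2 and 7). The 95% intervals of the log2 ratio included 0 for Slc13a2 (-3.42 to 0.002) and Slc17a3 (-5.31 to 0.39). Slc28a3, a concentrative nucleoside carrier gene, had 52 and 6. Loop of Henle markers summed to 94.5 CPM with panobinostat and 29.6 CPM with vehicle, with 2 higher and 1 lower of those past 500 UMIs. The part of these markers in these values was not tested.

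Over cells called G1, 5 members that were not called over all cells passed 2-fold. Slc29a1 is described above. Slc44a1, a choline carrier-like gene, was higher there (1.03), and lower were Slc39a13, a zinc carrier gene, just past 2-fold, Slc38a7, a lysosomal glutamine carrier gene (-1.14), and Slc13a2os (-1.10).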
